A study of Mus musculus with 4 samples.

Results

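The 44 genes described here act in G2 and mitosis, the last stages of the cell division cycle. They were taken by gene symbol from the expression table of the study, which holds 16416 genes, and all 44 were found. The rule names genes by what they are known to do, not by a measured value. The members were, however, chosen with earlier results of these data known. RNA was sequenced from fibroblasts of the mouse shoulder joint capsule to look for target genes of the microRNA miR-26a in a model of frozen shoulder. There were 4 libraries, 1 per group. The wild-type library came from cells of C57BL6/J mice, and the other libraries came from cells of mice lacking miR-26a (genotype miR-26a -/-). Of these knockout libraries, 1 was from untransfected cells. The others were from cells given 10 nM Silencer Negative Control siRNA or 10 nM of a double-stranded miR-26a mimic, in each case for 24 h. All cells were outgrowths of capsule tissue collected when the shoulder had been immobilized for 1 week, were kept in medium with fetal bovine serum and were used at passage 2. The age and sex of the mice, and the strain of the knockout mice, are not stated in the labels used here. Each group is 1 library, and the labels do not say whether the knockout libraries came from separate mice or cultures, so no difference below has a replicate check. The deleted microRNA itself was not analysed here.

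Cells entering mitosis switch on a shared set of genes. Their transcription is held back in resting cells by the DREAM complex and is raised in G2 by B-Myb and FoxM1, which act with the MuvB proteins at a promoter element named CHR. Many of these promoters also hold CCAAT boxes, which are bound by the factor NF-Y. The products drive entry into mitosis (cyclin B and Cdk1), build the spindle, attach chromosomes to it, delay anaphase until all are attached, and divide the cell, after which many are degraded through the anaphase-promoting complex. Many of these transcripts are used as markers of dividing cells. In RNA from a whole culture, more cells of a kind and more RNA per cell cannot be told apart.

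Estimated counts summed to between 17598763 and 19392655 per library. Levels are given as TPM, transcript abundances corrected for gene length that can be compared between genes. Ratios are log2 ratios of counts after scaling by TMM factors, which ranged from 0.978 to 1.02, so that a ratio of 1 is a 2-fold difference. Each ratio has an exact binomial 95% interval that covers counting error only. Genes counted as measured when 1 of the libraries compared had 1 CPM (counts scaled to a common library size) or more, and all 44 genes were measured in every comparison. A gene was called when the ratio was at least 2-fold and the interval excluded 0.

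The cultures held RNA of more than 1 cell type. Of 20 macrophage markers 19 were measured, and all 19 had ratios above 0 for knockout against wild type, beside 51.2% of all genes. Of these 19, 10 were at least 2-fold higher, beside 5.91% of all genes, and the markers had a median log2 ratio of 1.06. Their summed level was 24317 TPM in the wild-type library and between 34489 and 35740 TPM in the knockout libraries, while Cd163 lay between 0 and 0.16 TPM in all 4. Of 17 fibroblast markers 7 were lower by 2-fold or more in knockout cells, beside 7.01% of all genes, and none was 2-fold higher, beside 5.91%. The summed level of the fibroblast markers was 24492 TPM in the wild-type library and between 14618 and 16438 TPM in the others. Of 8 endothelial markers 4 were measured, 1 of them called higher and 2 lower, beside the same shares of all genes, and no lymphocyte marker was measured. These markers differed between the wild-type and the knockout libraries along with the mitotic genes, and their part in the results below was not tested.

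The mitotic genes were higher in the knockout than in the wild-type library. Of 44 genes 37 were called at least 2-fold higher and 0 lower, beside 5.91% higher and 7.01% lower among all 12803 measured genes. The median log2 ratio was 1.28, a fold of 2.43, with the 25th and 75th percentiles at 1.13 and 1.48, and that of all genes was 0.01. Together the 44 genes took 0.0633% of counts in wild-type cells, 0.153% in untransfected knockout cells, 0.152% with the negative control and 0.133% with the mimic. Their summed level was 497 TPM in the wild-type library, against 1043, 1038 and 922 TPM in the 3 knockout libraries in the same order. On the deposited TPM the median of all genes moved to -0.11 and that of the 44 genes to 1.11, and 30 were called.

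**Figure D1:**
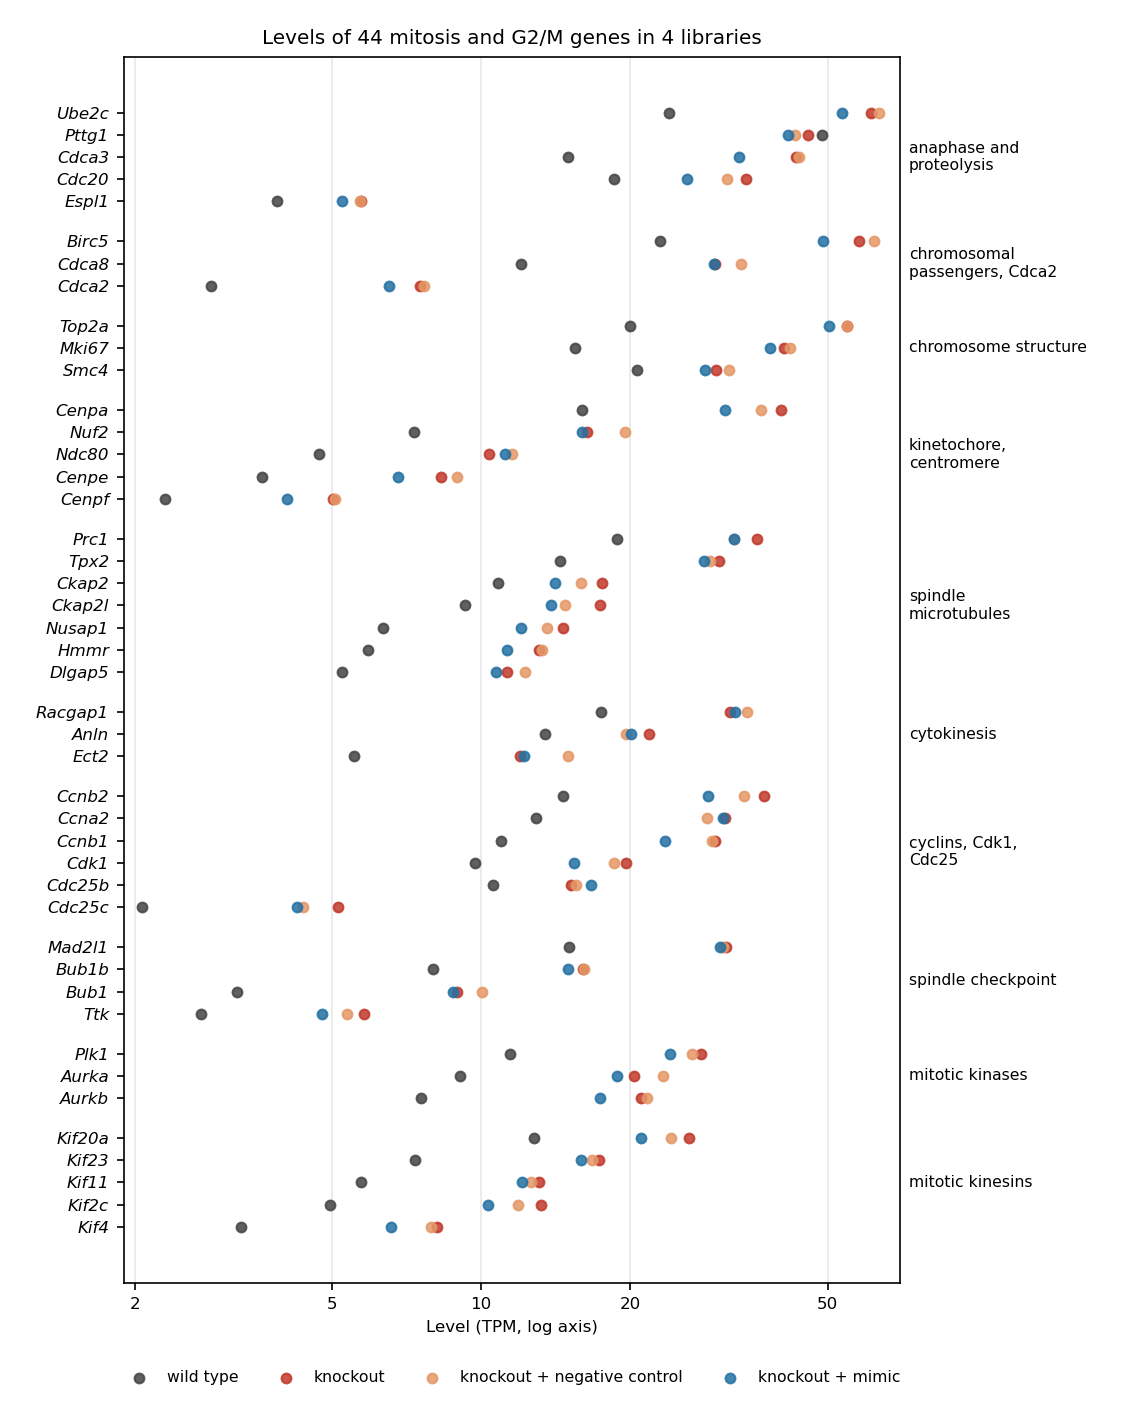
Level of each of the 44 genes in each library (horizontal axis, TPM on a log axis), grouped by role; each point is 1 library. The wild-type point lies lowest for every gene except Pttg1, for which it lies highest at 48.8 TPM.

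Cyclins and Cdk1 set off mitosis. Ccnb1, which encodes cyclin B1, was expressed at 10.97 TPM by wild-type cells, 29.6 by untransfected knockout cells, 29.2 with the negative control and 23.5 with the mimic. Ccnb2, encoding cyclin B2, stood at 14.6, 37.2, 33.8 and 28.7 TPM in the same order, which is kept below. Both were lowest in the wild-type library and, among the knockout libraries, lowest with the mimic. The log2 ratio of knockout to wild type was 1.56 (1.33 to 1.80) for Ccnb1 and 1.48 (1.22 to 1.75) for Ccnb2. Ccna2, encoding cyclin A2, which acts in S phase and in G2, was at 12.9, 31.1, 28.6 and 30.7 TPM, with a ratio of 1.39. Cdk1, the kinase activated by cyclins A and B, was at 9.73, 19.6, 18.5 and 15.4 TPM, with a ratio of 1.14. The phosphatases Cdc25b and Cdc25c activate Cdk1. Cdc25b was at 10.5, 15.2, 15.6 and 16.7 TPM and its ratio of 0.65 (0.43 to 0.88) was not called. Cdc25c, the least counted of the 44 genes with 28 to 79 counts, had a ratio of 1.48 with a wide interval, from 0.87 to 2.18, that overlaps that of Cdc25b. In all, 5 of these 6 genes were called.

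The 3 mitotic kinases outside the checkpoint were all called. Plk1, which acts at centrosomes, kinetochores and the midzone, was at 11.4 TPM in the wild-type library and at 27.8, 26.6 and 24.0 TPM in the knockout libraries. Aurka, the centrosomal Aurora kinase, was at 9.08, 20.4, 23.3 and 18.8 TPM, and Aurkb, the kinase of the chromosomal passenger complex, at 7.55, 21.01, 21.6 and 17.4 TPM. Aurkb had one of the highest ratios of all members, 1.60 (1.30 to 1.93). Its partners in that complex were also lowest in the wild-type library. Birc5 (survivin) was at 22.9, 57.8, 62.1 and 48.9 TPM, and Cdca8 (borealin) at 12.01, 29.7, 33.4 and 29.5 TPM with a ratio to wild type of 1.43. With Cdca2, a phosphatase-targeting protein of mitotic chromatin, all 3 genes of that group were called.

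The spindle checkpoint delays anaphase until every kinetochore is attached, and its 4 genes were all called. Mad2l1, which encodes the inhibitor Mad2, was at 15.1, 31.1, 30.7 and 30.4 TPM. Bub1b, encoding BubR1, was at 7.99, 16.0, 16.2 and 15.0 TPM. These 2 genes were about level across the knockout libraries and had ratios to wild type of 1.12 and 1.13. Bub1, a checkpoint kinase, was at 3.22, 8.95, 10.0 and 8.77 TPM and had the higher ratio of 1.60 (1.30 to 1.92).

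Kinetochore and centromere genes were called in 5 of 5 cases, within a narrow range of ratios from 1.25 to 1.41. Cenpa, the histone variant that marks centromeres, was at 16.0, 40.2, 36.6 and 31.1 TPM. Nuf2, a subunit of the Ndc80 complex that binds microtubules, was at 7.31, 16.4, 19.5 and 15.9 TPM. Cenpf, a large kinetochore protein, was at 2.30, 5.02, 5.06 and 4.05 TPM and had the lowest ratio of the group.

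Motor proteins and spindle proteins were called in 11 of 12 cases. Among the 5 kinesins, Kif20a, which acts in cytokinesis, was at 12.8, 26.3, 24.2 and 21.1 TPM, and Kif23, a subunit of centralspindlin, was at 7.35, 17.3, 16.7 and 15.9 TPM. Kif2c, a microtubule depolymerase, was at 4.96, 13.2, 11.9 and 10.3 TPM and had the highest ratio of the kinesins, 1.54 (1.23 to 1.87). Prc1, which bundles midzone microtubules, was at 18.8, 36.0, 32.4 and 32.4 TPM with a ratio of 1.05. Tpx2, which activates Aurka on the spindle, was at 14.4, 30.2, 29.0 and 28.2 TPM. Nusap1, a microtubule-bundling protein, was at 6.35, 14.6, 13.6 and 12.01 TPM and had the highest ratio of the 7 spindle genes, 1.39. Ckap2 was at 10.8, 17.5, 15.9 and 14.1 TPM, and its ratio of 0.82 (0.58 to 1.06) was not called.

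The genes of cytokinesis and of anaphase were called in 4 of 8 cases. Ect2, the exchange factor that activates RhoA at the cleavage furrow, was at 5.54, 12, 14.9 and 12.2 TPM and was called with a ratio of 1.24. Racgap1, the partner of Kif23, was at 17.5, 31.8, 34.4 and 32.5 TPM and missed the 2-fold limit at 0.99. Anln, an actin-binding protein of the furrow, was at 13.5, 21.8, 19.6 and 20.1 TPM with a ratio of 0.82. Ube2c, the ubiquitin-conjugating enzyme of the anaphase-promoting complex, was at 23.9, 61.1, 63.5 and 53.4 TPM, the highest level of any member in the knockout libraries. Cdca3, a factor in the degradation of the mitosis inhibitor Wee1, was at 15.0, 43.2, 43.8 and 33.2 TPM and had the highest ratio of all members, 1.62 (1.38 to 1.89). Espl1, encoding separase, had a ratio of 0.70 and was not called.

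Pttg1, which encodes securin, the inhibitor of separase, was the exception among the 44 genes. It was at 48.8 TPM in the wild-type library, the highest level of any member there, and at 45.7, 43.1 and 41.6 TPM in the knockout libraries. Its log2 ratio of knockout to wild type was 0.09, and the interval from -0.18 to 0.36 held 0, as for no other member. The direction turned with the scale, since the TPM were lower in the knockout library and the scaled counts slightly higher.

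Of the genes of chromosome structure, Top2a, the topoisomerase that untangles sister chromatids, was at 20, 54.7, 54.8 and 50.4 TPM. Mki67, which coats mitotic chromosomes and is used as a marker of dividing cells, was at 15.4, 40.7, 42.1 and 38.3 TPM. Smc4, a subunit of condensin, was at 20.6, 29.8, 31.6 and 28.3 TPM, and its ratio of 0.62 (0.49 to 0.76) was not called. With 1282 to 4126 counts per library, Mki67 had a narrow interval, from 1.42 to 1.61. Against the members' own median of 1.28, the intervals of 6 genes lay above it (Cdca3, Aurkb, Bub1, Top2a, Ccnb1 and Mki67), those of 9 below it and those of 29 held it.

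**Figure D2:**
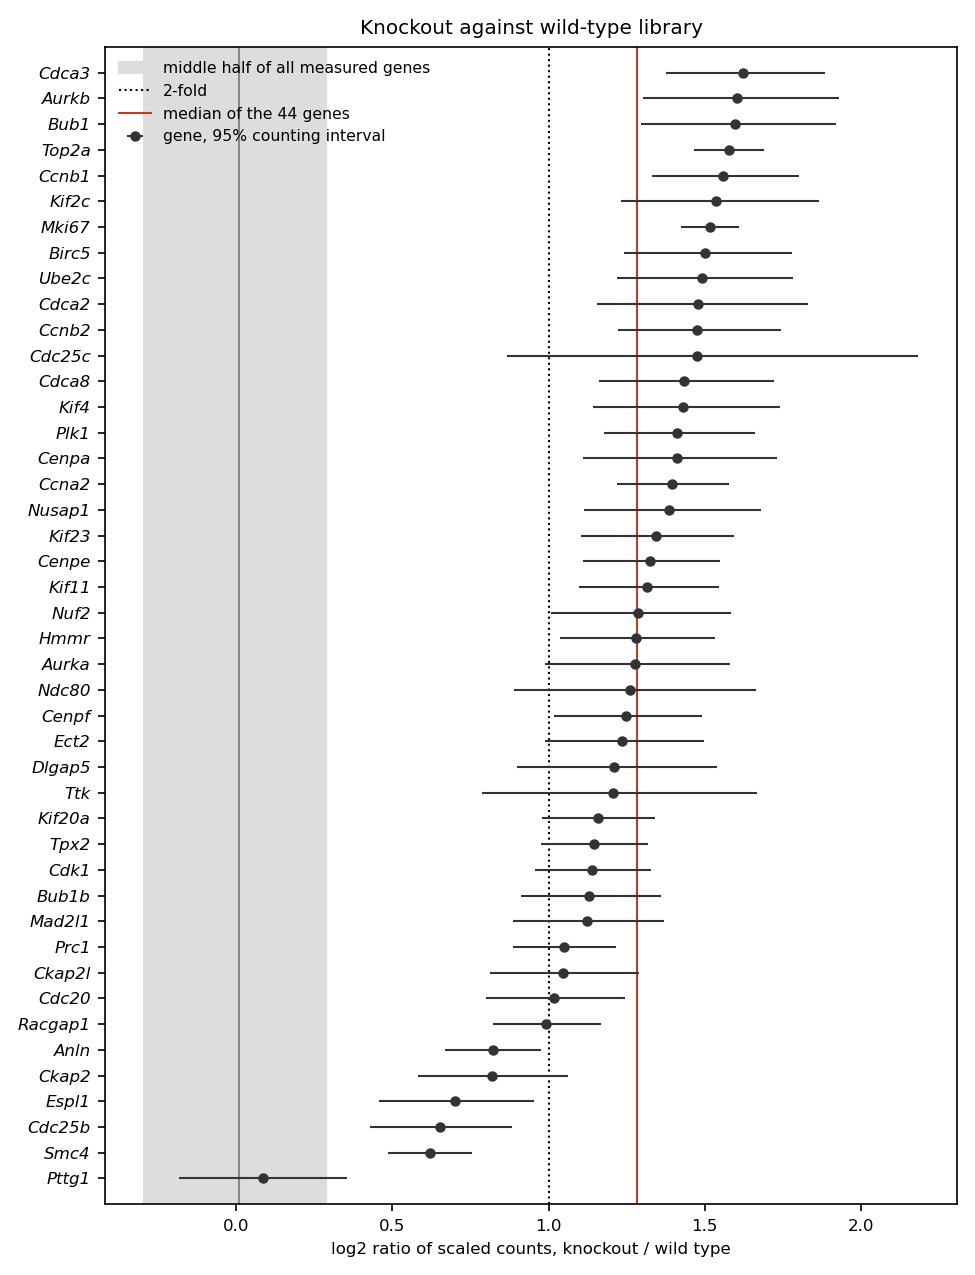
Log2 ratio of scaled counts, knockout to wild type, for each of the 44 genes with its 95% counting interval; the grey band spans the 25th to 75th percentile of all measured genes. The intervals of 43 genes lie above 0, and that of Pttg1 (0.09) holds 0.

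Other genes of the cycle were described with the same rule, in lists that were also chosen with earlier results of these data known. Among all 12803 measured genes 5.91% were called higher and 7.01% lower in knockout cells. Of 54 further genes whose transcripts peak in G2 and mitosis, 38 were called higher in knockout cells and 0 lower, their median being 1.12. Of 40 genes of S phase and replication 16 were called higher, with a median of 0.88. Rrm2, a subunit of ribonucleotide reductase, was at 18.4, 48.5, 43.4 and 50.2 TPM, and Pcna, the sliding clamp of replication, was at 198.6, 366.0, 351.3 and 395.8 TPM. Of 35 genes that act in mitosis but are expressed through the whole cycle, 0 were called, with a median of 0.15 and a highest ratio of 0.88. Ratios of this list were above 0 for 25 genes, beside 51.2% of all genes. Its intervals lay above 0 for 24 genes, beside 4173 of all 12803 genes, and below 0 for 5, beside 3883. Ywhae, a 14-3-3 protein of that list, was at 365.6, 404.6, 393.2 and 374.5 TPM.

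**Figure D3:**
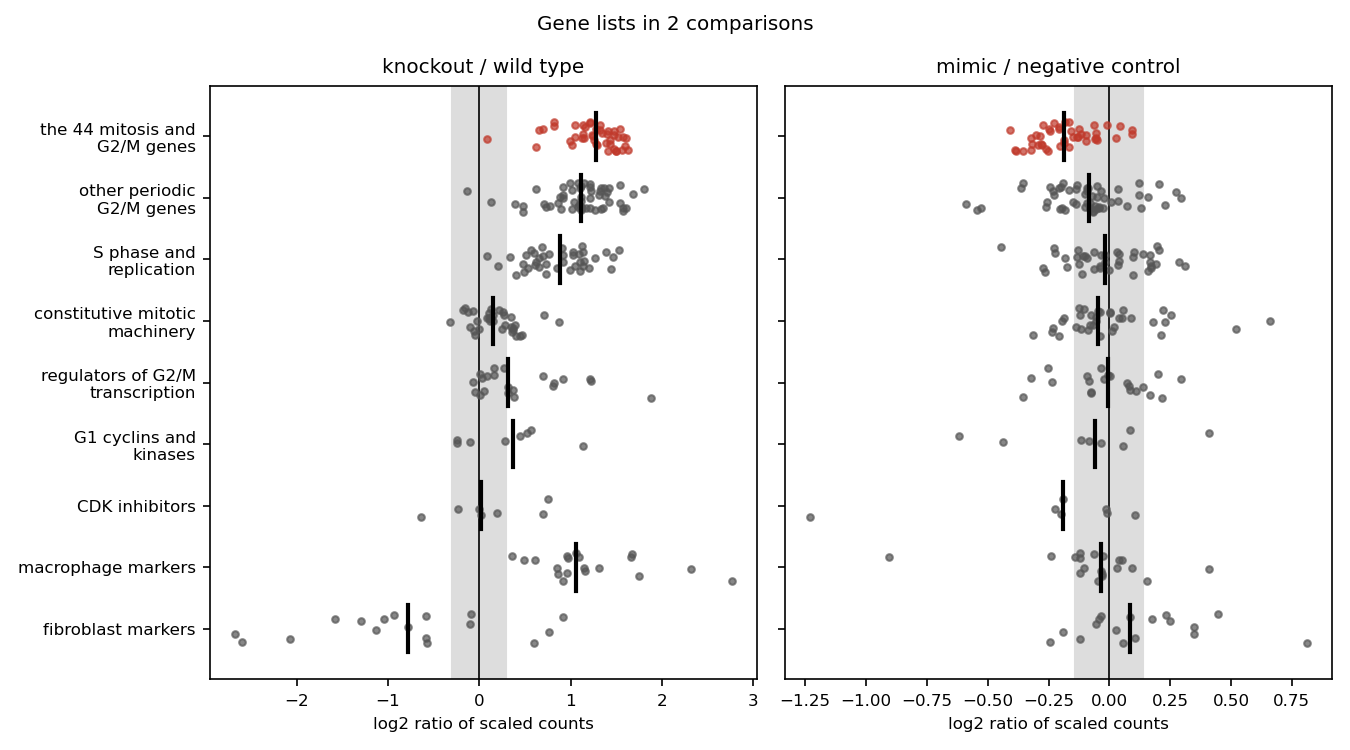
Log2 ratios of the genes of 9 lists in the knockout to wild-type comparison (left) and the mimic to negative-control comparison (right); each point is a gene, the black bar is the list's median and the grey band spans the 25th to 75th percentile of all measured genes. In the left panel the medians are 1.28 for the 44 genes, 0.88 for S phase and 0.15 for the constitutive machinery.

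The promoters of these genes share letters that the choice of members did not use. RefSeq promoter windows of 300 bases, from 250 before to 50 after an annotated start (GRCm38.p6), were found for 36 of the 44 genes. They make 38 windows, of which Ect2 and Prc1 have 2 overlapping ones each. Some annotated starts lie inside the RefSeq span of the gene, among them those of Pttg1, Cdca3, Cdc25b, Aurka and Kif2c. For these 5 genes the outer end of the gene was not covered. The CHR motif was searched as TTTGAA and the CCAAT motif as CCAAT, each on both strands. CHR letters were in 29 of 38 windows (76.3%), against 12.8% of 16352 windows of the other genes of the table and 17.9% of all promoters. CCAAT letters were in 30 of 38 windows (78.9%), against 37.4% of the windows of the other genes and 37.4% of all promoters. The 54 further G2 and mitosis genes, in 48 windows, held CHR letters in 58.3% and CCAAT letters in 62.5%, so these letters are shared beyond the 44 genes. An E2F-type motif, TTCCCGC, was in 0 of 38 windows, against 7.37% of those of the other genes, 4.60% of all promoters and 40.5% of 37 windows of S phase genes. A match is only a match of letters. The windows below show the CHR match, in capitals, with its surroundings in genes of 6 roles, each read 5' to 3' on the strand of the gene.
Cdk1 (chr10:69352910-69352939, minus strand): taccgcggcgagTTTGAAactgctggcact
Ccnb2 (chr9:70421533-70421562, minus strand): agcggcgcggtaTTTGAAtcgcggaccggg
Plk1 (chr7:122159453-122159482, plus strand): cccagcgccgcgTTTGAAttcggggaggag
Cenpf (chr1:189688067-189688096, minus strand): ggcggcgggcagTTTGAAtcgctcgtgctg
Kif23 (chr9:61946780-61946809, minus strand): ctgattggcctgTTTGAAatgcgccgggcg
Prc1 (chr7:80294434-80294463, plus strand): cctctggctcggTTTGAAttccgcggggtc
Cdca3 (chr6:124830194-124830223, plus strand): cgtggagggaagTTTGAAactccgggcttt

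CHR letters were found in 27 genes. The longer windows below are the 120 bases before the start used, with CHR and CCAAT letters in capitals, on either strand. Both kinds lie together in Cdk1 and Top2a, the Ccnb1 window had CCAAT letters alone and the Pttg1 window neither. The Pttg1 window lies inside the gene, whose RefSeq span reaches 43427463, so its letters do not describe that end of the gene.
Cdk1 (chr10:69352913-69353032, minus strand): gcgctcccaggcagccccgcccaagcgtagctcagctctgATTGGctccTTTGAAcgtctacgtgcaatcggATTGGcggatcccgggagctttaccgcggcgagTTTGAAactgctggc
Top2a (chr11:99024190-99024309, minus strand): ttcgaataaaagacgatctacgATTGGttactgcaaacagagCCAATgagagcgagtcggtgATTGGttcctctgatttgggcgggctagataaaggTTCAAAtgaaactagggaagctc
Ccnb1 (chr13:100786487-100786606, minus strand): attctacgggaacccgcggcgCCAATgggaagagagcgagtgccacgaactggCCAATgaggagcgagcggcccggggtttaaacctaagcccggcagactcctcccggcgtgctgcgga
Pttg1 (chr11:43425982-43426101, minus strand): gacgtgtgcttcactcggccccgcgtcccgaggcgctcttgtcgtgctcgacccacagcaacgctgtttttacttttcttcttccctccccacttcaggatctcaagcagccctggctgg
The ratios of genes with and without these letters overlapped. The median log2 ratio of knockout to wild type was 1.28 (range 0.70 to 1.62) over the 27 genes with a CHR match and 1.33 (range 0.09 to 1.60) over the 9 genes without one. The value of 0.09 was that of Pttg1. Only the letters TTTGAA were searched, so a gene without a match is not shown to lack the element.

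The negative-control siRNA left the mitotic genes near their level in untransfected knockout cells. The median log2 ratio of negative control to knockout was -0.05, and no gene differed 2-fold. Ratios were below 0 for 30 of 44 genes, beside 49.4% of all genes. Intervals lay below 0 for 5 genes (Ccna2, Kif20a, Prc1, Ckap2l and Anln), beside 17% of all genes, and above 0 for 2 genes (Nuf2 and Ect2), beside 16.5%. Few members thus had an interval clear of 0 for this pair. The split of signs depended on the scaling: in the authors' deposited table, whose ratios equal those of unscaled counts, 36 of the 44 genes were above 0 for this pair and the median was 0.12.

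The mimic carries the mature sequence of miR-26a. Its guide strand is shown with the seed, bases 2 to 8, in capitals, since these bases set which transcripts a microRNA pairs with.
Mimic guide strand: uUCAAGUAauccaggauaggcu
The mitotic genes were slightly lower in the mimic than in the negative-control library, and none differed 2-fold. The median log2 ratio was -0.19, with that of all genes at -0.01. Ratios were below 0 for 40 of 44 genes, beside 51.6% of all genes, and intervals lay below 0 for 21 genes, beside 18.8%, and above 0 for 0 genes, beside 19.1%. Cenpe, a kinesin of the kinetochore, had the lowest ratio, -0.41 (-0.58 to -0.24), at 3.61, 8.31, 8.94 and 6.78 TPM in the same order as above. Cdca3 followed at -0.39 and Cenpa at -0.38. Ccna2 had the highest ratio, 0.09 (-0.04 to 0.23), and with Cdc25b, Anln and Mad2l1 made up the 4 genes above 0.

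By role, the mimic to negative-control median was -0.32 for the 3 mitotic kinases and -0.29 for the kinetochore genes, of which 4 of 5 had an interval below 0, beside 18.8% of all genes. It was -0.26 for the chromosomal passengers with Cdca2, -0.25 for anaphase and proteolysis, -0.21 for kinesins, -0.18 for spindle proteins and -0.17 for cyclins, Cdk1 and Cdc25, where 3 of 6 intervals lay below 0. The values nearest 0 were -0.15 for chromosome structure, where 3 of 3 intervals lay below 0, -0.14 for the spindle checkpoint, with 0 of 4, and -0.09 for cytokinesis, with 1 of 3. With 3 to 7 genes in a role, these medians are descriptions. The S phase genes had a median of -0.02 in this comparison, with 21 of 40 below 0, near the 51.6% of all genes. The 54 further G2 and mitosis genes had a median of -0.08, with 42 below 0. The macrophage markers had a median of -0.04 and the fibroblast markers one of 0.08. The 7 inhibitors of cyclin-dependent kinases had a median of -0.19, as low as that of the 44 genes. Of these inhibitors 6 were below 0, beside 51.6% of all genes, and 3 had an interval below 0, beside 18.8%.

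The mimic library was also lower than that of untransfected knockout cells, in a comparison that shares the mimic library with the one above. The median log2 ratio was -0.24, with 42 of 44 genes below 0, beside 49.7% of all genes. Intervals lay below 0 for 25 genes, beside 17.4%, and above 0 for 0 genes, beside 17.3%. In this comparison the fibroblast markers had a median of -0.11, with 13 of 17 below 0 and 10 intervals below 0. The macrophage markers had one of -0.01, and the part of both in the result was not tested. The 54 further G2 and mitosis genes had a median of -0.15, with 49 below 0. Of the 35 mitosis genes expressed through the whole cycle, 25 were below 0 and 13 had an interval below 0, with a median of -0.06. The 7 inhibitors of cyclin-dependent kinases had a median of -0.25, with 6 below 0, and the 40 S phase genes one of 0.03, with 16 below 0. Among the 44 genes, the lowest ratios were those of Cdc20, the activator of the anaphase-promoting complex, at -0.44 (-0.64 to -0.25), and of Cdca3 at -0.43. Which reference was used mattered for single genes. Ect2 was at -0.30 (-0.48 to -0.12) against the negative control and at -0.03 (-0.22 to 0.17) against untransfected cells, and Nuf2 was at -0.29 and -0.08. Both were among the genes higher with the negative control than without it.

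**Figure D4:**
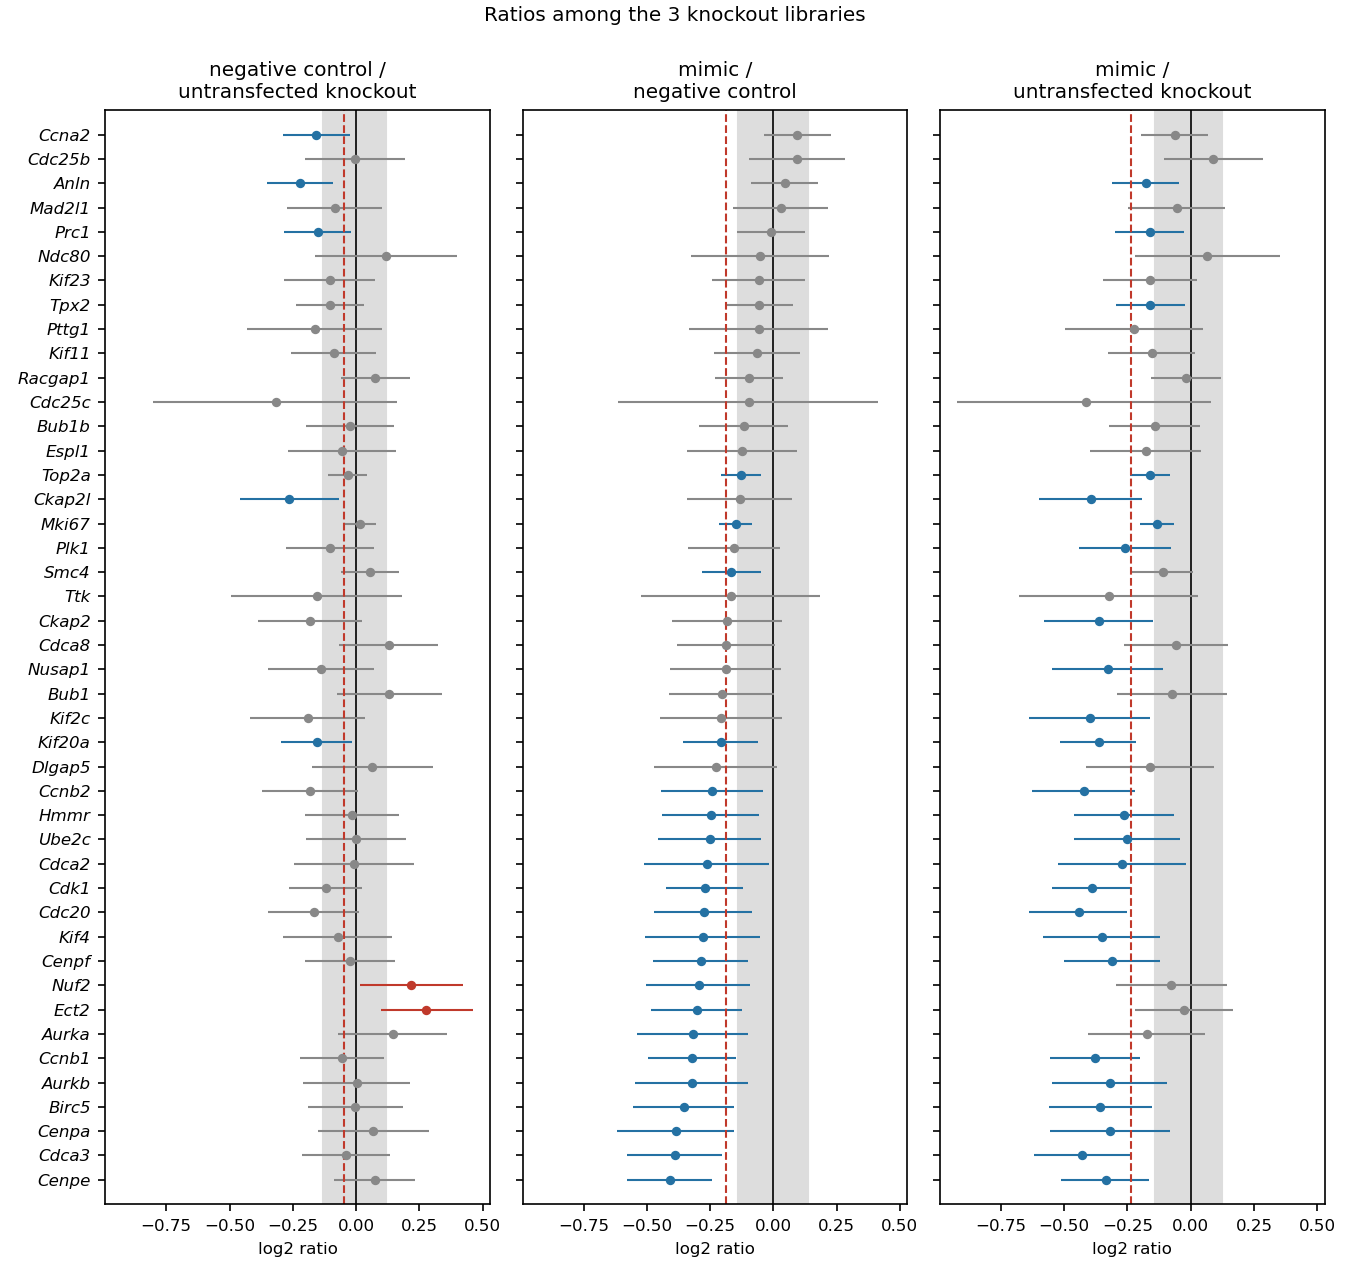
Log2 ratios among the 3 knockout libraries for each of the 44 genes with 95% counting intervals, ordered by the mimic to negative-control ratio; blue intervals lie below 0, red ones above 0 and grey ones hold 0, and the dashed line is the median of the 44 genes. The medians are -0.05, -0.19 and -0.24 from left to right.

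The mimic library stayed above the wild-type library for these genes. Of 44 genes 27 were at least 2-fold higher with the mimic than in the wild type, beside 5.81% of all genes, with a median of 1.06, and 35 were at least 2-fold higher with the negative control, beside 5.84%, with a median of 1.26. Pttg1 was the 1 gene with a ratio below 0 in both comparisons, which share the wild-type library, at -0.14 (-0.42 to 0.14) for the mimic and -0.08 (-0.35 to 0.19) for the negative control.

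Few of the mitotic transcripts carry a site for the full seed, bases 2 to 8, and matches to fewer of these bases were not searched. The site is TACTTGA, the complement of bases 2 to 8 of the guide strand, and it was searched in the 3' untranslated regions (3' UTRs) of the GENCODE M21 annotation of GRCm38. It was found in 1 of 44 genes (2.27%), beside 12.3% of 12330 measured genes with a 3' UTR. The members' 3' UTRs were shorter, with a median of 634 bases for the longest of each gene against 1233 bases. The gene with a site was Mad2l1, in 1 of its 2 annotated transcripts, at chr6:66543208-66543214 and chr6:66547089-66547095 on the plus strand. The sites are shown in capitals with their surroundings.
Mad2l1 first site: actgcttctactTACTTGAcagcatatctg
Mad2l1 second site: aaaactataccaTACTTGAtttaaacatat
Both lie beyond the end of the gene in RefSeq, at 66541107. Mad2l1 had a mimic to negative-control ratio of 0.03 (-0.16 to 0.22), an interval that holds 0.

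For 9 of the 44 genes an exon overlaps an exon of another counted gene (Ccna2, Cdc20, Cdc25b, Cdca8, Kif20a, Kif4, Nusap1, Prc1 and Ube2c). Whether reads were counted by strand is not stated in the labels used here, so the values of these genes can include reads of their neighbours.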

How the data were processed

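RNA of 4 libraries, 1 per group, was sequenced, with groups as labelled. Tools and builds listed in the submitters' processing notes are Bowtie2, HISAT and FastQC, with mm10 and GRCm38.p6, but no version or role of any. How reads were assigned to genes, and whether by strand, is not given in the sources used here. Read counts are estimated counts that the authors deposited without scaling by library size, per the file headers. The authors also deposited TPM, used here for levels, and FPKM and a normalized signal, which were not used. From the authors' comparison table only the deposited log2 ratios between pairs of libraries were used. The p-values deposited by the authors were not used.

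Estimated counts were scaled with TMM factors (edgeR 4.0.16, R 4.3.3), and log2 ratios were computed after adding 1 count. Counts were rounded for exact conditional binomial (Clopper-Pearson) intervals at 95%, which cover counting error only. The floor of 3 counts is 0.151 to 0.170 CPM. With 1 library per group no test between conditions was made. Alternatives were DESeq2 1.42.0 size factors, total counts, deposited TPM with 0.5 TPM added, a prior of 0.5 or 5 counts, no filter or 5 CPM, a fold of 1.5, and a shorter promoter window. The procedure was tested on simulated counts that held counting error only. That test cannot show how far the calls would hold between cultures. Promoters and the mature microRNA came from RefSeq tables (GRCm38.p6), and 3' UTRs from GENCODE M21 (GRCm38). Every member could be named, and values in all libraries were given in each role for the 2 genes with the highest mean TPM and those with the highest and lowest knockout to wild-type ratio; in other lists the genes named were among the 2 with the largest ratio and the 2 with the highest mean TPM, except Mybl2, Foxm1 and Cd163, which were named after their values were seen. The members and the gene lists were chosen with earlier results of these data known. Analyses used scipy 1.17.1, pandas 2.3.3 and numpy 2.4.6 in Python 3.11.15, and figures used matplotlib 3.10.9.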

Additional observations from a re-analysis of the deposited data

How the results depend on the processing

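The median of the 44 genes kept its sign in every comparison under the alternatives run here, but for negative control to knockout it was -0.05 and turned to 0.12 in the authors' deposited table, whose ratios are not scaled by library size. It ranged from 1.11 (deposited TPM with 0.5 TPM added, as below unless stated) to 1.32 (total counts) for knockout to wild type. The range was -0.17 to -0.22 for mimic to negative control and -0.17 to -0.25 for mimic to knockout. The number of genes at least 2-fold higher than in the wild-type library was lowest on the deposited TPM. There it was 30 in untransfected knockout cells, 27 with the negative control and 18 with the mimic. With no TPM added, it was 34, 31 and 23 in the same order. At a fold of 1.5 on scaled counts it was 43, 43 and 39. The number of genes with a mimic to knockout ratio above 0 was 4 on the deposited TPM, against 2. Over all genes, the knockout to wild-type count of higher genes was 500 on the deposited TPM against 757, and at a fold of 1.5 it was 1443 higher and 1690 lower, with 1524 higher in the negative-control library and 1459 in that of the mimic. The number of genes with a negative control to knockout ratio above 0 was 14, and lay between 12 and 21 under the other scalings. The cause of these differences was not tested. With the shorter promoter window, 71.1% of the members' windows held CHR letters, against 4.84% of those of the other genes. No paired analysis was possible because each group is 1 library, and for the same reason no library could be left out.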

Other observations

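The lists for G1 and for regulators of the cycle were read by the same rule for knockout against wild type. In that comparison 5.91% of all 12803 measured genes were called higher and 7.01% lower. Of 8 G1 cyclins and kinases 1 was at least 2-fold higher, Ccne2, a cyclin of the G1 to S transition, at 5.99 TPM in wild-type cells, 11.98 in untransfected knockout cells, 10.9 with the negative control and 11.1 with the mimic. Ccnd1, encoding cyclin D1, was at 269.4, 364.9, 426.1 and 454.8 TPM in the same order, and Ccnd2, encoding cyclin D2, at 371.8, 315.6, 414.2 and 308.8 TPM. Of 7 inhibitors of cyclin-dependent kinases 0 were called in that comparison, and Cdkn1a, encoding p21, was at 722.5, 668.9, 651.6 and 704.1 TPM.

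Of 21 regulators of G2 and mitosis transcription 3 were called higher in the knockout library, beside 5.91% of all genes. With so few genes in these lists, such counts are descriptions. E2f8, an atypical E2F repressor, was at 3.10, 9.70, 9 and 10.4 TPM, with a log2 ratio of 1.88 (1.54 to 2.25). E2f2 and Mybl2, which encodes B-Myb, had ratios of 1.22 each. Foxm1 was at 8.26, 14.3, 14.6 and 14.4 TPM and its ratio of 0.92 (0.72 to 1.13) was not called.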
